A study of Mus musculus with 3 samples.

Results

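Ifnb1 and 7 genes that interferon induces (Ifit1, Ifit2, Ifit3, Isg15, Rsad2, Oasl1 and Irf7) were followed through the cells of the adult mouse lacrimal gland (LG), to see which cells held the interferon transcript and which held the transcripts it is known to induce. The 8 genes were chosen by name out of 32285 in the count matrices, with earlier results of these data known, so their levels are given as a description and no test was made on them. The data were 10x Genomics 3′ single-cell libraries from C57BL/6J mice of 2 months with no treatment given in the labels. There was 1 female library and there were 2 male libraries, and each came from a pool of 6 LGs of 3 animals, so the animals inside a pool cannot be separated. The tissue was minced, digested with enzymes in a warm bath and depleted of dead cells on a column before loading. Cells of female and of male glands were run on different days and at different facilities (Scripps for the female, Salk for the male pools), and the effects of sex, facility and day therefore cannot be told apart. Where 3 values are listed below, they stand in the order female library, male library 1 and male library 2.

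Interferon beta, the product of Ifnb1, is a secreted type I interferon that cells make after receptors such as the Toll-like receptors, RIG-I-like receptors or the cGAS-STING pathway have sensed microbial products or misplaced nucleic acid. It binds a receptor built from IFNAR1 and IFNAR2, whose kinases JAK1 and TYK2 activate STAT2, which enters the nucleus with IRF9 in a complex that binds a DNA element repeated around GAAA in the promoters of interferon-stimulated genes. Ifit1, Ifit2 and Ifit3 encode proteins with tetratricopeptide repeats, of which IFIT1 binds viral RNA. Isg15 encodes a ubiquitin-like modifier, Rsad2 encodes the antiviral enzyme viperin, Oasl1 encodes a relative of the oligoadenylate synthetases that lacks their activity, and Irf7 encodes a transcription factor that amplifies type I interferon genes. In lacrimal and salivary glands these genes are best known from Sjögren's disease, an autoimmune inflammation of both glands. Some of them can also be induced without interferon, by the same factors that switch on Ifnb1.

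On the GRCm38 (mm10) build, Ifnb1 lies on chromosome 4 at 88522025 to 88522774, minus strand, and has 1 exon. Isg15 lies on the same chromosome at 156199424 to 156200818. Ifit2, Ifit3 and Ifit1 are neighbours on chromosome 19, at 34550694 to 34576419, 34583531 to 34588731 and 34640871 to 34650009. Rsad2 lies on chromosome 12 at 26442746 to 26456452, Oasl1 on chromosome 5 at 114923240 to 114937915 and Irf7 on chromosome 7 at 141262706 to 141266481. All 8 genes had a promoter window in RefSeq (GRCm38.p6), 250 bases before to 50 after the start, and Ifit2 had 2 windows. A pair of motifs was searched on both strands, with overlapping matches counted apart. The first was GAAA, then NN (any pair of bases), then GAAA, the core of the interferon-stimulated response element, and the second was GGGA, then NN, then TTCC, a form of the NF-kappaB site. The first was in 3.44% and the second in 1.47% of the 32851 mouse promoter windows of this length. The response element core was in the windows of Isg15 (3 matches), Ifit1 (2), Ifit3 (2) and Rsad2 (1). The NF-kappaB form was in the window of Ifnb1 and in 1 of the 2 windows of Ifit2 (1 match each). Neither string was in the other Ifit2 window or in the windows of Oasl1 and Irf7. A match is a string of letters and not a measured site. The stretches around the matches are shown for the interferon gene, for 4 known targets that hold the response element core and for the Ifit2 window with the NF-kappaB form. Each is read 5′ to 3′ on the gene's strand with the matched bases in capitals.
Ifnb1 (chr4:88522871-88522940, minus strand): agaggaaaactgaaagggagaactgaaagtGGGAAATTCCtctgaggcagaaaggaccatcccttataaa
Isg15 (chr4:156200845-156200926, minus strand): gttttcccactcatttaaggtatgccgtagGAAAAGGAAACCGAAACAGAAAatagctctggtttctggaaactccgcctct
Rsad2 (chr12:26456533-26456602, minus strand): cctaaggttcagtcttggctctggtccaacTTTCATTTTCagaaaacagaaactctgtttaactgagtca
Ifit3 (chr19:34583343-34583446, plus strand): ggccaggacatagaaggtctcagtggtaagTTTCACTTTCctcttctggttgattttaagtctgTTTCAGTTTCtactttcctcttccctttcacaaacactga
Ifit1 (chr19:34640755-34640843, plus strand): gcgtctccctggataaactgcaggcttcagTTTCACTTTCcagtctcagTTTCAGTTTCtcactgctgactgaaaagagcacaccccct
Ifit2 (chr19:34550444-34550486, plus strand): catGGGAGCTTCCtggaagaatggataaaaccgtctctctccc

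After filters and removal of predicted doublets, 7652, 5295 and 5397 cells were kept, with medians of 3252, 1884 and 1788 UMIs (unique molecular identifiers, 1 per captured molecule). Libraries shared 12 to 18 cell barcodes pairwise. Cells were clustered without the genes of interest and without all other interferon genes listed, and clusters were named from marker genes. This gave 3378 myeloid-like, 1776 endothelial-like, 2880 fibroblast-like, 148 mural-like, 1477 lymphoid-like and 7723 epithelial-like cells, while 945 cells stayed unnamed. The female library stood apart, with deeper cells and a smaller share of RNA from 121 tear-product genes of the secretory cells. In myeloid-like cells that share was 29.2%, 50.7% and 55.3% of UMIs, and in the barcodes not called as cells it was 86.0%, 91.5% and 91.2%. Levels below are CPM, a gene's UMIs as a share of all UMIs in a cell class on the usual counts-per-million scale, and since tear-product RNA enters that total, levels were also computed with those genes left out of the totals. A UMI marks the 3′ end of a molecule, so CPM does not scale with transcript length.

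Ifnb1 transcripts were found almost wholly in myeloid-like cells. They made up 2663 of 2774 Ifnb1 UMIs of kept cells in the female library, 219 of 222 in male library 1 and 177 of 184 in male library 2. The myeloid-like share of Ifnb1 UMIs was 96.9% ± 1.48 (SD, n = 3 libraries) of all kept cells and 98.3% ± 0.471 of named cells, while these cells were on average 18.1% of the cells. Their level was 452, 125 and 112 CPM. Every other named class had at most 17 Ifnb1 UMIs in a library and a level of at most 4.05 CPM, and mural-like cells had none in 148 cells, where 3 UMIs would have been 17.9, 39.5 and 32.4 CPM.

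Of the myeloid-like cells, 52.5%, 15.0% and 14.0% had an Ifnb1 UMI, against 0.663%, 0.0783% and 0.103% of epithelial-like cells. Median depths were 3566, 1758 and 1425 UMIs in myeloid-like cells. After thinning each cell to 1000 UMIs, which left out 11, 33 and 97 of the shallower myeloid-like cells, the shares were 29.9%, 9.04% and 11.1%, against 0.089%, 0% and 0% of epithelial-like cells. The myeloid-like class stayed far above the epithelial-like one at equal depth. A single cell held up to 19 Ifnb1 UMIs in the female library and up to 4 in each male library. In the female library 189 cells held 5 or more, and no cell of a male library did.

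Free RNA in the suspension was estimated from barcodes that were not called as cells, in 2 ways. Over all such barcodes the Ifnb1 level was 3.84, 0.522 and 0.571 CPM, but barcodes with more than 500 UMIs held 96.9%, 94.5% and 93.2% of their UMIs and may include cells. In barcodes of 10 to 100 UMIs it was 14.7, 12.9 and 11.6 CPM, from 1, 3 and 2 Ifnb1 UMIs. If all tear-product RNA in a cell class were free RNA, the first composition would bring 0.288%, 0.231% and 0.309% of the Ifnb1 UMIs seen in myeloid-like cells and the second 1.25%, 6.22% and 6.73%, with exact Poisson 95% upper bounds of 6.95%, 18.2% and 24.3%. Most Ifnb1 UMIs of myeloid-like cells were thus above either estimate. In the female library the first composition would bring 132% of the 3 UMIs seen in endothelial-like, 60.7% of the 11 in fibroblast-like and 43.0% of the 8 in lymphoid-like cells, and the second more than all of them in each of these classes. No expression outside the myeloid-like class is read from so few UMIs.

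**Figure D1:**
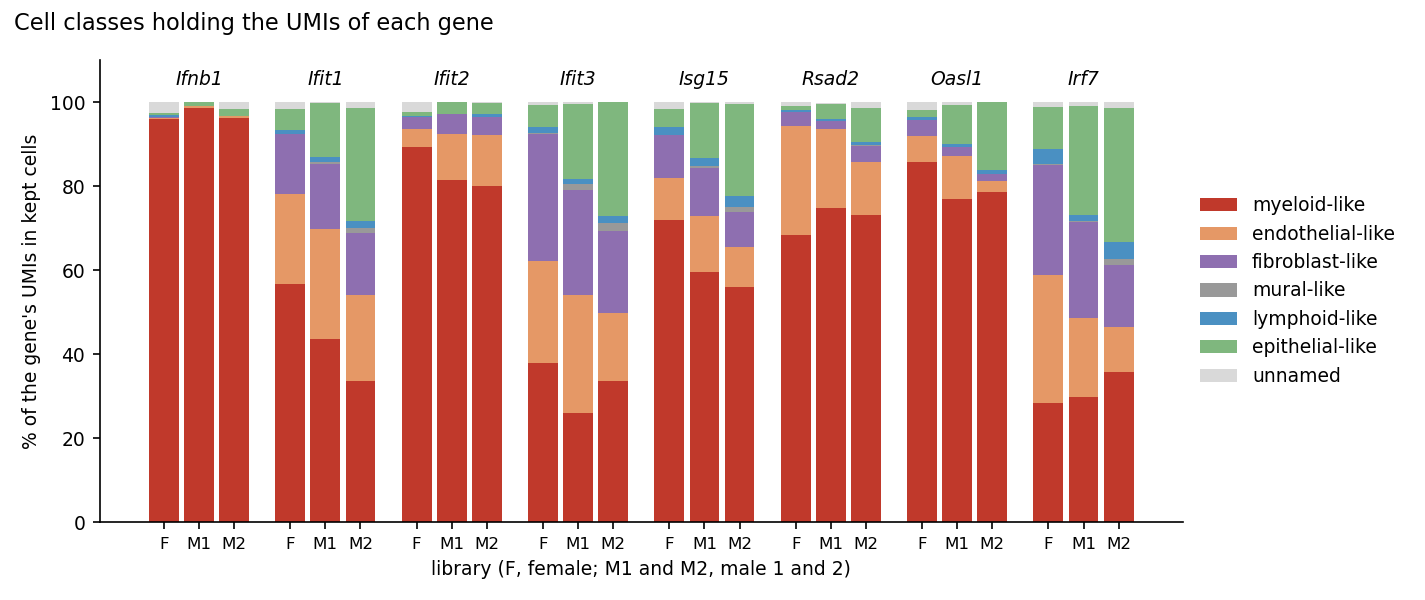
Stacked bars show, for each of the 8 genes and each library (F, female; M1 and M2, male 1 and 2), the percentage of the gene's UMIs in kept cells that fell in each cell class. Ifnb1 is almost wholly myeloid-like (96.9% on average), Ifit2 and Oasl1 mostly so, and Ifit1, Ifit3 and Irf7 are spread over several classes. The epithelial-like part is not read as expression.

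Among myeloid-like cells, the level was highest in the inflammatory macrophage-like subset, a group named from Cd14, Tnf, Il1b and Ccl4, so that those 4 genes are no finding there. Its Ifnb1 level was 692, 246 and 293 CPM. The subset was 47.5%, 33.9% and 34.4% of myeloid-like cells and held 70.3%, 64.8% and 75.1% of their Ifnb1 UMIs. Trem2-high macrophage-like cells had 237, 101 and 60.4 CPM, and proliferating myeloid-like cells 230, 95.5 and 158 CPM. In each library the inflammatory subset was above both, whose ranges overlapped each other. Resident macrophage-like cells had 128, 68.4 and 0 CPM.

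Dendritic-like and monocyte-like cells held nearly no Ifnb1. Cd209a dendritic-like cells had 4 UMIs in 300 cells and migratory dendritic-like cells 1 UMI in 93 cells, all in the female library. Monocyte-like cells had 0 UMIs in 145 cells, of which 18, 56 and 71 came from the 3 libraries. These subsets were small, in particular in the female library with its 16 migratory dendritic-like and 18 monocyte-like cells. A further 896 myeloid-like cells met no subset name and had 297, 114 and 47.2 CPM.

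**Figure D2:**
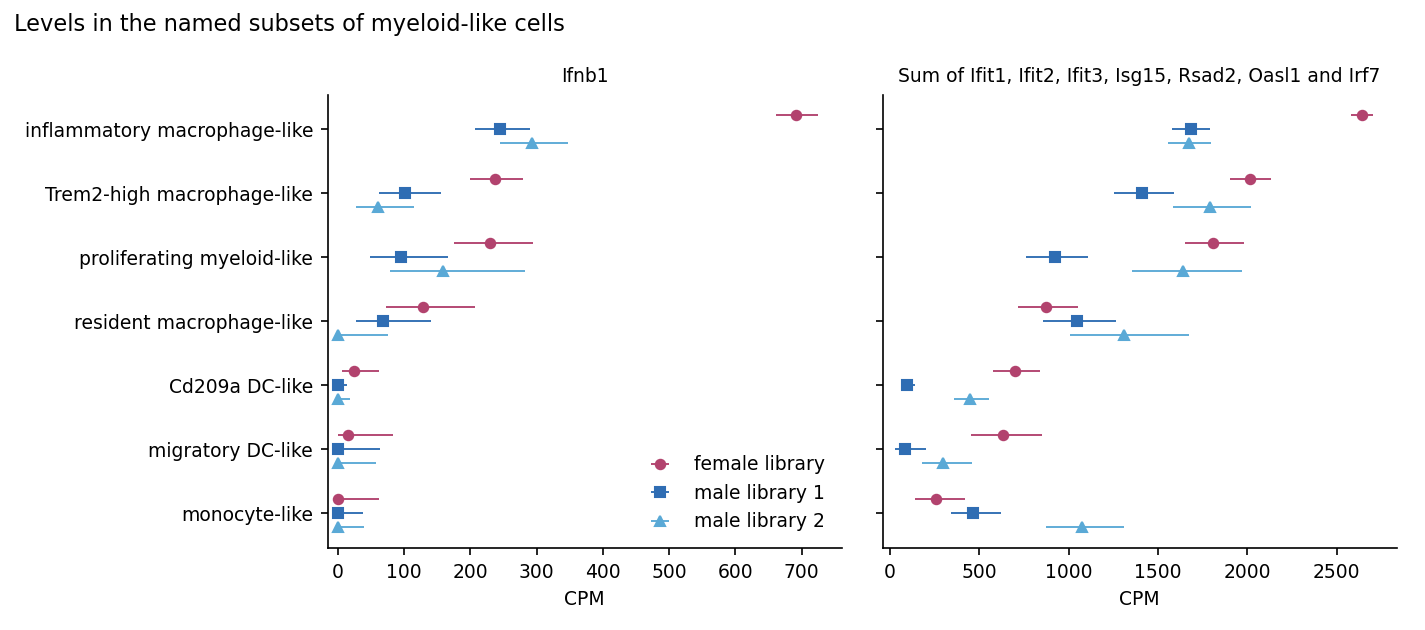
Points give the level (CPM, linear axes) of Ifnb1 (left) and of the summed 7 interferon-stimulated genes (right) in the named subsets of myeloid-like cells, 1 point per library, and horizontal lines are exact Poisson 95% intervals that cover counting error only. Inflammatory macrophage-like cells are highest for Ifnb1 in each library (692, 246 and 293 CPM), and dendritic-like and monocyte-like cells are at or near 0.

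No other type I or type III interferon was seen in number. Of 20 other interferon genes listed, 16 had no UMI in any kept and named cell (Ifna1, Ifna5, Ifna6, Ifna7, Ifna9, Ifna11, Ifna12, Ifna13, Ifna14, Ifna15, Ifna16, Ifnab, Ifne, Ifnk, Ifnl2 and Ifnl3). Ifna2 had 8 UMIs and Ifna4 had 1 UMI in myeloid-like cells, and Ifnz had 1 UMI in epithelial-like cells. The type II interferon gene Ifng, known from natural killer and T cells, was at 66.3, 95.8 and 86.6 CPM in lymphoid-like cells. It had 0 UMIs in myeloid-like, endothelial-like and fibroblast-like cells, and 6 in epithelial-like cells. Among lymphoid-like subsets Ifng was at 175, 112 and 101 CPM in natural killer-like cells and at 110, 200 and 102 CPM in cytotoxic T-like cells, so the beta and gamma interferon transcripts lay in separate cell classes.

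Many genes that act upstream of Ifnb1 were higher in myeloid-like cells. Of 18 tested genes of this list, 11 were higher and 0 lower in myeloid-like cells against all other named cells (edgeR, adjusted p under 0.05), beside 21.9% of all 12625 genes tested that were higher and 27.0% that were lower. The list's median log2 difference was 1.26, against −0.17 for all genes. Cd14, counted among the higher genes, also served to name a myeloid-like subset, so its call is no finding. The 6 with the highest level were Cd14, the co-receptor for bacterial lipopolysaccharide (314 ± 53.4 CPM, SD, n = 3), Irf8 and Irf5, transcription factors of myeloid cells (150 ± 62.4 and 50.7 ± 22.5 CPM), Tmem173, which encodes STING (26.5 ± 16.3 CPM), Tlr7, a receptor for single-stranded RNA (24.1 ± 9.70 CPM), and Rela, a subunit of NF-kappaB (19.7 ± 6.51 CPM). All 6 were called higher, with log2 differences from 0.63 for Rela to 8.14 for Tlr7. Cd14, Irf8, Irf5 and Tlr7 had their highest mean in myeloid-like cells among the classes tested. Tmem173 was as high in endothelial-like cells (28.4 ± 3.56 CPM, called higher), and Rela was at 24.1 ± 11.7 CPM there and 19.0 ± 9.77 CPM in fibroblast-like cells. In epithelial-like cells, part of the other arm, Tmem173 and Rela were at 1.19 and 4.30 CPM. Counts for this list were not repeated without epithelial-like cells. Irf3, the factor that is held ready in most cells, had 12.2 ± 7.10 CPM and a log2 difference of −0.53 that was not called (adjusted p = 0.148, edgeR).

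The receptor chains were seen in several classes. Ifnar2 was at 117, 91.7 and 81.7 CPM in myeloid-like, 138, 80.9 and 48.9 CPM in endothelial-like and 126, 102 and 64.6 CPM in fibroblast-like cells, and these 3 ranges overlapped. It was at 44.5, 18.3 and 32.5 CPM in lymphoid-like and at 12.1, 5.72 and 3.94 CPM in epithelial-like cells. Ifnar1 had lower levels, with 46.2, 15.9 and 17.7 CPM in myeloid-like, 66.2, 15.3 and 19.6 CPM in endothelial-like and 3.16, 0.943 and 0.985 CPM in epithelial-like cells. Of the 7 receptor and kinase genes tested, 5 were higher in myeloid-like, 4 in endothelial-like, 3 in fibroblast-like and 4 in lymphoid-like cells and none was lower in these classes, where 21.9%, 15.9%, 18.3% and 13.8% of all genes tested were higher. In epithelial-like cells 6 were lower and 0 higher, beside 28.8% of all genes that were lower. In myeloid-like cells the other genes of this list among the 6 highest were Ifngr1 (73.9 ± 50.8 CPM), Jak1 (57.9 ± 18.2 CPM, log2 difference 0.13, not called), Ifngr2 (43.4 ± 24.8 CPM) and Jak2 (19.5 ± 5.56 CPM). Ifngr1 was called higher there although fibroblast-like (162 ± 36.7 CPM) and lymphoid-like cells (101 ± 33.1 CPM) had more. Epithelial-like cells, with their low levels, were part of the other arm, and counts for this list were not repeated without them.

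The 7 interferon-stimulated genes were found well beyond the cells that held Ifnb1. Their summed level was 2060, 1091 and 1123 CPM in myeloid-like cells, 1012, 815 and 657 CPM in endothelial-like cells and 293, 327 and 383 CPM in fibroblast-like cells. Within each library these 3 classes kept that order. Mural-like cells had 53.7, 171 and 335 CPM from 53 UMIs in all, lymphoid-like cells 96.1, 84.4 and 119 CPM and epithelial-like cells 14.0, 11.8 and 17.8 CPM. The mural-like range overlapped those of fibroblast-like and lymphoid-like cells. For Isg15, on average the largest part of both sums, the second free RNA composition rests on 3 UMIs in each library. It would bring 50.8%, 20.7% and 26.0% of the Isg15 UMIs seen in lymphoid-like cells and 117%, 12.7% and 9.59% in mural-like cells. The first composition would bring at most 7.63% in either class. The part of free RNA in the lymphoid-like and mural-like levels is thus unsettled, and no order is read from them. With tear-product genes left out of the totals, the class means became 2542 ± 350, 1719 ± 172, 647 ± 245, 481 ± 456, 251 ± 98.8 and 103 ± 48.7 CPM (SD, n = 3), listed in the order of classes above. Myeloid-like, endothelial-like and fibroblast-like means kept their order.

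Myeloid-like cells had the highest levels of Ifit2, Isg15, Rsad2 and Oasl1. Ifit2 was at 646, 146 and 146 CPM there, against 68.8, 48.8 and 57.1 CPM in endothelial-like and 21.4, 13.1 and 15.8 CPM in fibroblast-like cells, with no overlap between these classes. Lymphoid-like cells had 7.59, 0 and 3.61 CPM and epithelial-like cells 0.928, 0.274 and 0.192 CPM, which overlapped, and mural-like cells had no Ifit2 UMI. Isg15 was at 555, 379 and 390 CPM in myeloid-like, 173, 209 and 171 CPM in endothelial-like and 85.4, 113 and 111 CPM in fibroblast-like cells. The ubiquitin-like modifier was thus ordered in the same way, without overlap, and was lower at 17.9, 65.9 and 141 CPM in mural-like, 44.5, 47.9 and 52.3 CPM in lymphoid-like and 5.22, 4.44 and 6.60 CPM in epithelial-like cells, the mural-like range overlapping both neighbours.

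Oasl1 was the member whose class pattern was closest to that of Ifnb1. It was at 88.8, 60.9 and 58.3 CPM in myeloid-like and at 14.4, 19.5 and 4.89 CPM in endothelial-like cells. In fibroblast-like, lymphoid-like and epithelial-like cells it did not pass 4.24 CPM in any library, and mural-like cells had no UMI. Rsad2 was at 455, 298 and 274 CPM in myeloid-like cells and at 385, 183 and 122 CPM in endothelial-like cells. These 2 ranges overlapped, although within each library the myeloid-like level was the higher one. All other classes were at or below 26.8 CPM of Rsad2.

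Ifit1, Ifit3 and Irf7 had another order, with the highest mean level in endothelial-like cells. Ifit1 was at 175, 160 and 153 CPM in endothelial-like and 207, 108 and 96.9 CPM in myeloid-like cells, so the 2 classes overlapped, followed without overlap by fibroblast-like cells with 56.8, 59.6 and 82.8 CPM. Ifit3 was at 90.8, 100.5 and 73.4 CPM in endothelial-like cells, above the 55.5, 56.1 and 65.8 CPM of fibroblast-like and the 64.0, 38.1 and 58.9 CPM of myeloid-like cells. Fibroblast-like and myeloid-like cells did not differ beyond their spread in this gene. Irf7 was at 105, 93.5 and 75.0 CPM in endothelial-like, 44.0, 59.8 and 98.2 CPM in myeloid-like and 44.3, 70.9 and 78.0 CPM in fibroblast-like cells, and all 3 ranges overlapped. Ifit3 has a near-identical copy, Ifit3b, and Ifit1 has close relatives, so the split of reads among these copies is uncertain. The order of the class means was the same for each of the 7 genes when tear-product genes were left out of the totals.

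**Figure D3:**
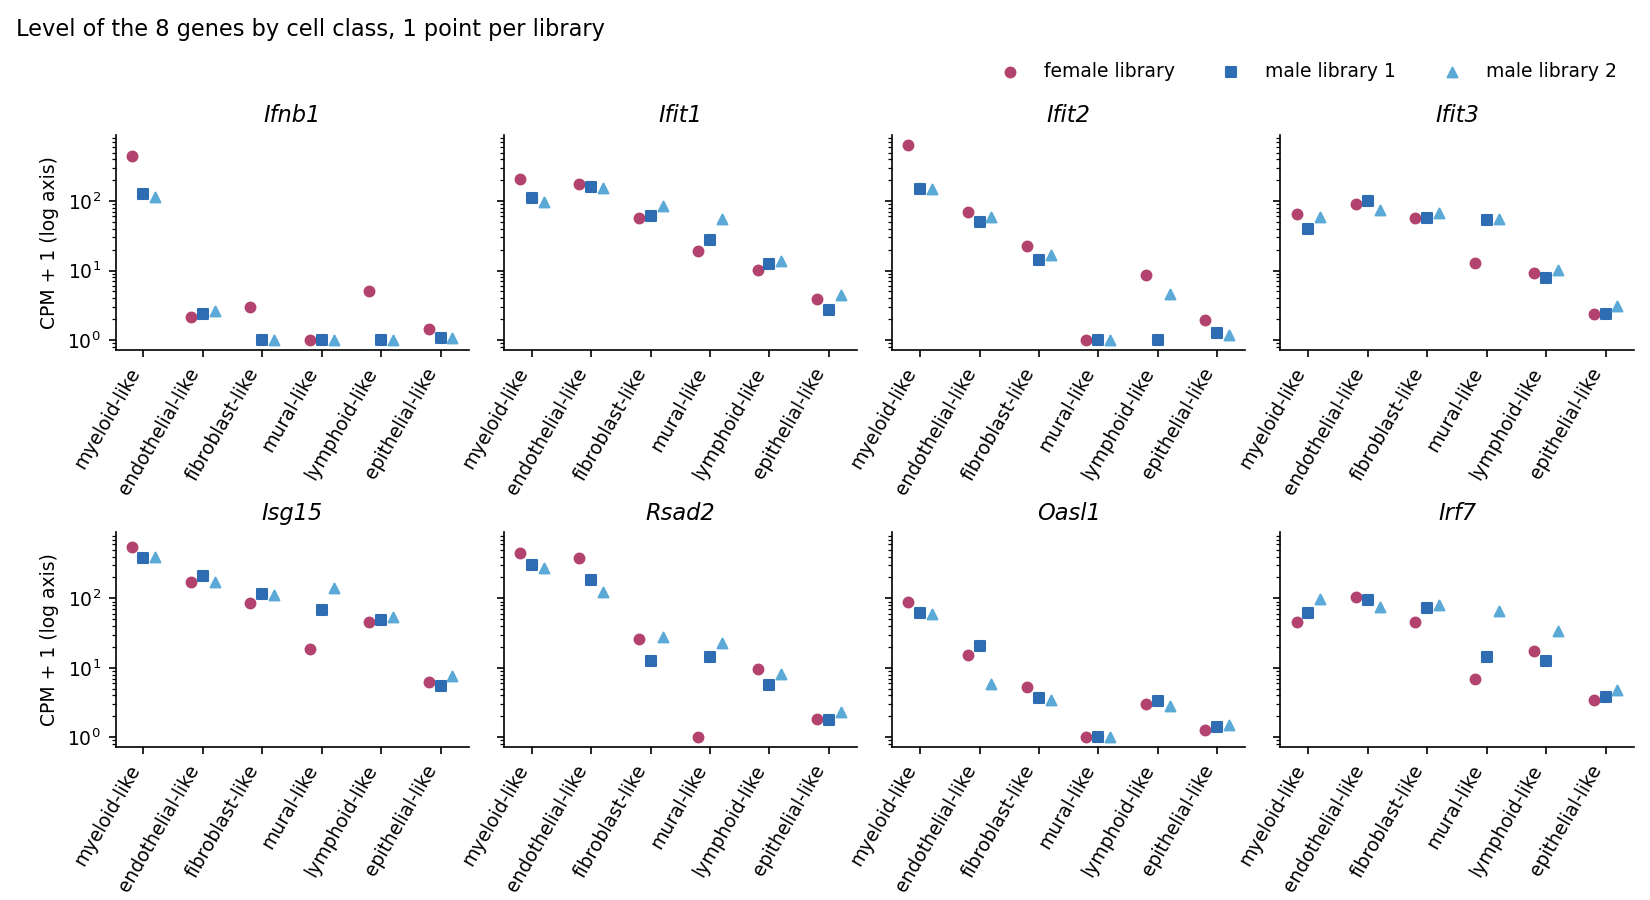
Each panel shows 1 gene, with the level (CPM + 1, log axis) in 6 cell classes and 1 point per library. Ifnb1 is high in myeloid-like cells alone (452, 125 and 112 CPM). Ifit3 is highest in endothelial-like cells in each library, and for Ifit1 and Irf7 the ranges of endothelial-like and myeloid-like cells overlap.

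The share of a gene's UMIs held by a class depends also on the number of cells and their RNA, and was ordered differently from the levels. Myeloid-like cells held 83.5% ± 5.10 of Ifit2, 80.4% ± 4.65 of Oasl1, 72.1% ± 3.36 of Rsad2 and 62.4% ± 8.37 of Isg15 UMIs of kept cells. They also held the most of Ifit1 (44.5% ± 11.6), Ifit3 (32.5% ± 6.00) and Irf7 (31.3% ± 3.97). Endothelial-like cells, 9.31% of the cells, held 22.8% ± 3.10 of Ifit1, 22.8% ± 6.00 of Ifit3 and 20.0% ± 9.96 of Irf7. Epithelial-like cells, 43.9% of the cells and lowest by level, held 22.7% ± 11.2 of Irf7. Their summed level of the 7 genes (14.0, 11.8 and 17.8 CPM) was near that of all uncalled barcodes (13.4, 7.19 and 12.2 CPM) and below that of barcodes of 10 to 100 UMIs (191, 60.4 and 34.7 CPM, from 13, 14 and 6 UMIs), so the share of the epithelial-like class as a whole is not read as expression. Irf7 alone was at 3.01 ± 0.68 CPM (SD, n = 3) in epithelial-like cells. In all uncalled barcodes it was at 1.10, 1.06 and 2.56 CPM, so the nearness of the sum does not hold for Irf7 by itself. The make-up of the summed 7 genes also differed between classes. In myeloid-like cells Isg15 made up 32.2% ± 4.52, Rsad2 24.6% ± 2.64 and Ifit2 19.3% ± 10.5 of the sum, and Irf7 5.45% ± 3.31. In fibroblast-like cells Isg15 made up 30.9% ± 3.18, Ifit1 19.8% ± 1.74, Irf7 19.1% ± 3.48 and Ifit3 17.8% ± 1.04, and Rsad2 6.33% ± 2.58.

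Capillary-like and venous-like cells differed in 3 of the 7 genes beyond the range of their libraries. Rsad2 was at 626, 276 and 286 CPM in capillary-like cells and at 81.0, 86.0 and 58.5 CPM in venous-like cells. The opposite held for Ifit1, at 141, 107 and 164 CPM in capillary-like and 259, 262 and 268 CPM in venous-like cells. Neither gene overlapped between the 2 subsets, and after thinning the share of cells with a Rsad2 UMI was 43.9%, 24.2% and 29.2% in capillary-like and 5.74%, 6.21% and 7.89% in venous-like cells. For Ifit1 the thinned shares were closer, at 12.5%, 8.66% and 17.9% against 17.2%, 16.8% and 21.1%. Irf7 was at 141, 118 and 117 CPM in capillary-like and at 56.8, 68.1 and 78.0 CPM in venous-like cells, without overlap. Ranges of the 2 subsets overlapped for Ifit2, Ifit3, Isg15 and Oasl1. The venous-like name came from clusters with marker scores of 3.80, 1.58 and 0.816. Those scoring 1.58 and 0.816 had 0 venous markers among their 10 leading genes. A capillary-like cluster scoring 1.46 likewise had 0 capillary markers there, so part of both subsets was weakly named. The summed 7 genes were at 1025 ± 237 CPM in capillary-like, 829 ± 86.2 CPM in venous-like and 692 ± 156 CPM in arteriolar-like cells, which did not differ beyond their spread. The stress genes listed made up 1.08%, 0.727% and 0.856% of UMIs in capillary-like and 2.05%, 1.03% and 1.03% in venous-like cells, and their part in these differences was not tested.

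Within the epithelium, acinar-like cells, which secrete the bulk of tear protein, had the lowest summed level at 3.45 ± 1.35 CPM. Duct-like cells had 110 ± 42.4 CPM, myoepithelial-like cells 96.8 ± 33.0 CPM and Ltf+ cells, which express lactoferrin, 73.6 ± 32.7 CPM. The last 3 subsets did not differ beyond their spread. With tear-product genes left out of the totals the values were 32.7 ± 17.3 CPM in acinar-like, 236 ± 133 CPM in duct-like, 187 ± 96.3 CPM in myoepithelial-like and 305 ± 192 CPM in Ltf+ cells, and acinar-like cells were still the lowest. Isg15 was the largest part of the sum in duct-like cells, at 30.3, 57.7 and 86.7 CPM.

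Smaller steps were seen between fibroblast-like subsets. Parenchymal fibroblast-like cells had a summed level of 285, 363 and 454 CPM, adventitial-like cells 288, 178 and 276 CPM and Mfap4 fibroblast-like cells 80.5, 17.9 and 106 CPM. The Mfap4 subset, of 115 cells, lay below both others in each library. In lymphoid-like cells the sum was 166 ± 86.9 CPM in natural killer-like, 131 ± 31.3 CPM in cytotoxic T-like and 90.2 ± 17.5 CPM in innate lymphoid-like cells, whose ranges overlapped. The part of free RNA in these subsets is not given, and no order is read from them.

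Within the myeloid-like class the summed 7 genes and Irf7 were ordered differently. The sum was at 1999 ± 554 CPM in inflammatory macrophage-like, 1740 ± 305 CPM in Trem2-high, 1458 ± 471 CPM in proliferating and 1075 ± 220 CPM in resident macrophage-like cells. It was lower in monocyte-like (598 ± 425 CPM), Cd209a dendritic-like (415 ± 304 CPM) and migratory dendritic-like cells (337 ± 275 CPM). Irf7 was at 29.2, 43.2 and 41.9 CPM in inflammatory macrophage-like cells and at 85.2, 186 and 318 CPM in monocyte-like cells, so the subset with the most Ifnb1 had less Irf7 than the monocyte-like one in each library. The monocyte-like value of the female library rests on 18 cells. Trem2-high cells, with 237, 101 and 60.4 CPM of Ifnb1, had 605, 484 and 597 CPM of Isg15, near the 669, 579 and 641 CPM of inflammatory macrophage-like cells.

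Cells with and without an Ifnb1 UMI were compared inside the inflammatory macrophage-like subset, after thinning to 1000 UMIs. The share with an Ifit2 UMI was 51.3%, 33.3% and 27.4% in cells with Ifnb1 (318, 54 and 62 cells) and 43.6%, 11.7% and 17.4% in cells without it (417, 257 and 213 cells). For Ifit1 the shares were 28.0%, 27.8% and 16.1% against 19.2%, 8.56% and 13.6%. For Isg15 they were 49.1%, 42.6% and 59.7% against 36.0%, 37.0% and 37.1%, and for Rsad2 37.4%, 37.0% and 38.7% against 31.2%, 29.6% and 25.8%. All 4 genes were thus seen more often in cells with an Ifnb1 UMI in each library. Irf7 was seen in 1.89%, 3.70% and 3.23% against 3.12%, 5.06% and 5.63%, which rests on too few cells to read a direction, and Ifit3 and Oasl1 had no common one. Cells of a library are not replicates, and a cell without a UMI at this depth may still hold the transcript. Tear-product RNA, 28.7%, 50.3% and 49.4% of UMIs in this subset, counts towards the 1000. Its share was not compared between cells with and without Ifnb1, and its part in these differences was not tested.

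Cells with several of the 7 genes were also counted. The share that independent detection of each gene would give was not computed, so no joint expression is read from these counts. At 1000 UMIs, 16.3%, 7.84% and 10.97% of myeloid-like cells held 3 or more of the 7, against 6.47%, 4.92% and 7.14% of endothelial-like, 1.41%, 1.68% and 2.37% of fibroblast-like and 0.178%, 0.198% and 0.248% of epithelial-like cells. Without thinning the myeloid-like shares were 50.2%, 16.3% and 16.5%. All 7 were seen together in 17 myeloid-like cells of the female library and in 2 of male library 1. At least 1 of the 7 was seen in 68.3%, 44.0% and 52.9% of thinned myeloid-like and in 53.5%, 42.9% and 48.7% of thinned endothelial-like cells.

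Other interferon-stimulated genes, which the choice of the 8 did not use, were tested class by class against all other named cells. Of 38 further genes known from type I interferon, 37 were tested in myeloid-like cells, of which 26 were higher and 1 was lower (21.9% and 27.0% of all genes). In endothelial-like cells 22 of 35 were higher and 6 lower (15.9% and 24.5% of all 12358 genes), and in fibroblast-like cells 16 of 35 were higher and 3 lower (18.3% and 22.5% of all 12723 genes). In lymphoid-like cells 9 of 36 were higher and 13 lower (13.8% and 28.5% of all 11900 genes), and in epithelial-like cells 0 of 37 were higher and 35 lower (23.9% and 28.8% of all 13402 genes). The list's median log2 differences were 1.68, 1.42, 0.63, −0.50 and −2.44 in these 5 classes, against medians between −0.30 and −0.04 over all genes. In either direction 48.9%, 40.3%, 40.8%, 42.3% and 52.7% of all genes were called.

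Since epithelial-like cells were the largest class and had the lowest levels, the counts were repeated with them left out of the other arm, an alternative added after the data were seen. The split was then 16 higher and 8 lower in myeloid-like cells (25.0% and 26.7% of all genes), 17 and 10 in endothelial-like cells (17.7% and 23.9%), 6 and 19 in fibroblast-like cells (23.8% and 29.2%) and 2 and 19 in lymphoid-like cells (15.3% and 24.1%), where 51.7%, 41.5%, 53.0% and 39.3% of all genes were called in either direction. Among stromal and immune classes, higher calls thus outnumbered lower ones in myeloid-like and endothelial-like cells, and the direction turned in fibroblast-like cells. Scaling by total UMIs gave 28 higher and 3 lower in endothelial-like, 31 and 1 in fibroblast-like and 13 and 8 in lymphoid-like cells. That scaling also moved the median log2 difference of all genes upward in these classes, as given in the last section. The shares of all genes called are not given for it, so nothing about the list is read from these counts.

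**Figure D4:**
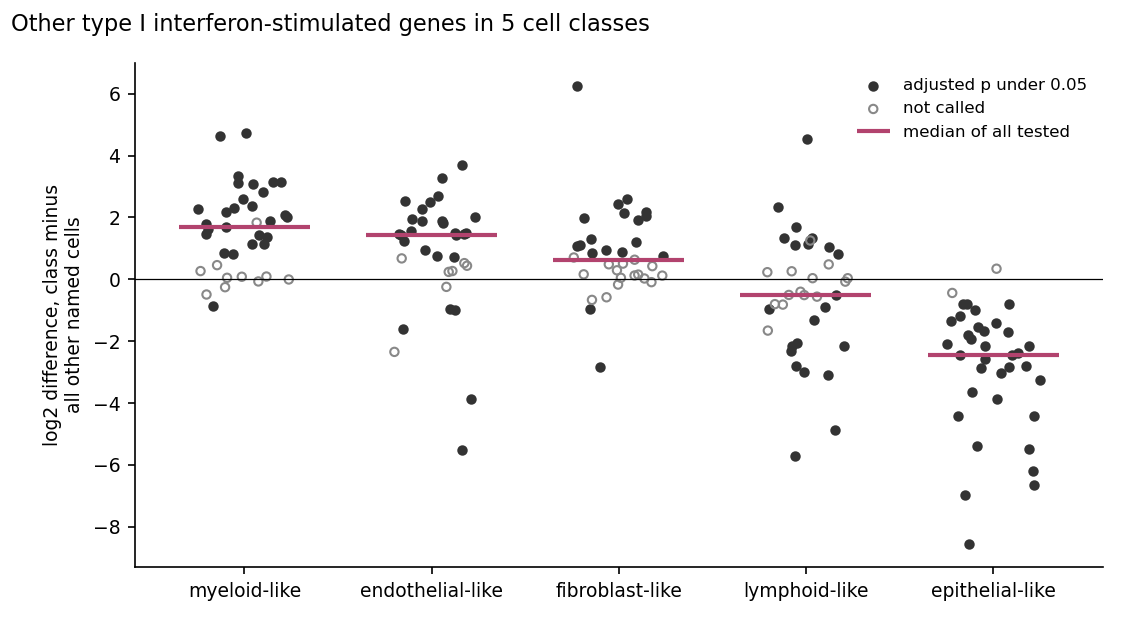
Each point is 1 other type I interferon-stimulated gene, with its log2 difference between a cell class and all other named cells (y axis) in 5 classes, filled where the adjusted p of edgeR was under 0.05 and open where not, with genes at 0 UMIs in a class not drawn. Bars mark the median of the genes tested, which runs from 1.68 in myeloid-like to −2.44 in epithelial-like cells.

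Genes known from interferon gamma were most often higher in endothelial-like cells. Of this list 20 of 23 were higher and 1 lower there, with a median log2 difference of 2.15 (15.9% of all genes were higher and 24.5% lower), and 15 were higher and 2 lower with epithelial-like cells left out of the other arm (17.7% and 23.9%). In myeloid-like cells 9 of 22 were higher and 3 lower, with a median of 0.26 (21.9% and 27.0%), but with epithelial-like cells left out 7 were higher and 12 lower, with a median of −1.14 (25.0% and 26.7%). Fibroblast-like cells had 12 of 21 higher and 1 lower, beside 18.3% and 22.5% of all genes, and with epithelial-like cells left out 5 and 9, beside 23.8% and 29.2%. Lymphoid-like cells had 9 of 22 higher and 5 lower, beside 13.8% and 28.5%, and with epithelial-like cells left out 1 and 10, beside 15.3% and 24.1%. Epithelial-like cells had 0 of 23 higher and 23 lower, beside 23.9% and 28.8%.

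In myeloid-like cells the genes of both lists with the largest differences were Ciita, the master regulator of MHC class II genes (log2 difference 7.31 ± 0.43, SE), Oas3, an oligoadenylate synthetase (4.74 ± 0.45), Ifi209, a member of the PYHIN family (4.64 ± 0.38), Cxcl10, a chemokine for activated T cells (4.60 ± 0.25), Ifih1, which encodes the RNA sensor MDA5 (3.34 ± 0.24), and Slfn8 of the Schlafen family (3.14 ± 0.33). Their adjusted p in edgeR was at most 5.51e-05. Cxcl10 was also the most abundant of them, at 1625, 844 and 705 CPM. A total of 4 genes of both lists were called lower, of which the 3 with the largest differences were Iigp1, an immunity-related GTPase (−3.42 ± 0.33), and the guanylate-binding proteins Gbp6 (−1.97 ± 0.44) and Gbp7 (−0.97 ± 0.28, adjusted p = 0.0185 in edgeR), of which Gbp7 lost its call under 5 alternatives. The remaining one, the only lower gene of the type I list, was Ifi44 (−0.87 ± 0.28, adjusted p = 0.0304 in edgeR), which falls outside the rule for named genes.

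Endothelial-like cells had another set, led by GTPases that act against intracellular pathogens. Iigp1 was at 652, 518 and 421 CPM (log2 difference 4.71 ± 0.27), against 5.43, 4.56 and 4.43 CPM in myeloid-like cells. Gbp4 (4.54 ± 0.36), Gbp9 (3.87 ± 0.36), Tgtp1 (6.15 ± 0.65) and Tgtp2 (4.19 ± 0.53) were also higher, as was Ifi44 (3.70 ± 0.27), with an adjusted p of at most 1.8e-06 in edgeR. Tgtp1 and Tgtp2 are near-identical copies, so the split between them is uncertain. Ifi27l2a (−3.87 ± 0.22) and Ifi205 (−5.52 ± 0.66, from 2 UMIs) were lower, and Ifi209 had 0 UMIs in these cells.

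In fibroblast-like cells the largest differences were those of Ifi205, a PYHIN gene (6.25 ± 0.26, at 124, 233 and 162 CPM), Socs1, a feedback inhibitor of JAK kinases (2.66 ± 0.40), the GTPase gene Irgm2 (2.64 ± 0.29), Slfn5 (2.59 ± 0.22), Gbp6 (2.53 ± 0.34) and Ifi27l2a (2.44 ± 0.25, at 737, 1657 and 1332 CPM). Their adjusted p was at most 0.00048 in edgeR. Lower were Oas3 (−2.82 ± 0.73, adjusted p = 0.0111, from 4 UMIs) and Ciita (−6.80 ± 0.69, from 1 UMI), and Ifi209 had 0 UMIs.

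In lymphoid-like cells Ifit1bl1 (4.54 ± 1.08, from 11 UMIs), Ifi209 (2.35 ± 0.37), Nlrc5, a regulator of MHC class I genes (2.23 ± 0.56), Zbp1, a nucleic acid sensor (1.69 ± 0.33), Socs1 (1.54 ± 0.40) and the GTPase gene Ifi47 (1.53 ± 0.32) were higher, with an adjusted p of at most 0.000565 in edgeR. Ifitm3, which blocks viral entry, was lower (−4.86 ± 0.22, at 17.2, 22.8 and 27.1 CPM), as were Cxcl9 (−5.04 ± 0.90) and Ifi205 (−5.72 ± 0.76), each from 1 UMI. Zbp1, Socs1 and Ifi47 were no longer called with epithelial-like cells left out of the other arm.

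In epithelial-like cells every call was lower. The smallest differences were those of Irf9 (−0.79 ± 0.18), Stat2 (−0.80 ± 0.26) and Ddx58, which encodes the RNA sensor RIG-I (−0.80 ± 0.21), followed by the kinase gene Eif2ak2 (−1.01 ± 0.18), the ISG15 protease gene Usp18 (−1.20 ± 0.29) and Ifitm3 (−1.36 ± 0.39), with an adjusted p of at most 0.0367 in edgeR. Ifitm3 was still at 340, 84.1 and 75.2 CPM, the highest level of these 6. The largest differences were those of Ifi205 (−8.56 ± 0.39), Cxcl9 (−7.50 ± 0.54) and Ifi204 (−6.97 ± 0.31), which had 4, 4 and 19 UMIs in 7723 cells.

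Cytokine genes that innate stimulation induces together with Ifnb1 were high in the same class. Of 12 tested, 11 were higher and 1, Il6, was lower in myeloid-like cells, beside 21.9% and 27.0% of all genes. Ccl4, Tnf and Il1b, counted here, also served to name a myeloid-like subset. Marker genes were kept in the clustering, so the calls of these genes are no finding. The highest were Ccl4 at 13806, 7166 and 6285 CPM, Ccl3 at 4779, 2455 and 2162 CPM, Cxcl2 at 2291, 3855 and 2741 CPM and Il1b at 783, 1540 and 1113 CPM, followed by Cxcl10 and Tnf (1211, 821 and 750 CPM). Ccl4, Ccl3, Cxcl10 and Tnf were highest in the female library, as Ifnb1 was, whereas Cxcl2 and Il1b were lowest there. Genes known to respond to tissue digestion were also abundant. Atf3 was at 1681, 885 and 689 CPM, Nfkbia at 1395, 1015 and 810 CPM, Zfp36 at 1435, 499 and 466 CPM, Junb at 916, 626 and 530 CPM, Hspa1a at 1334, 293 and 328 CPM and Jun at 1199, 309 and 328 CPM, all in myeloid-like cells. Of the 15 genes of this stress list 6 were higher and 6 lower in myeloid-like cells, beside the same shares of all genes. The listed stress genes together made up 1.14%, 0.519% and 0.463% of myeloid-like UMIs, and their part in the levels of Ifnb1 and its companions was not tested.

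Among the members in myeloid-like cells, Ifnb1 and Ifit2 were furthest above and Irf7 furthest below the male libraries in the female library. The female level was 3.82 times the male mean for Ifnb1, 4.41 times for Ifit2, 2.02 for Ifit1, 1.59 for Rsad2, 1.49 for Oasl1, 1.44 for Isg15, 1.32 for Ifit3 and 0.556 for Irf7. With tear-product genes left out of the totals the ratios of Ifnb1 and Ifit2 were 2.54 and 2.92. For the other members the ratios with those genes left out were 1.34 for Ifit1, 0.864 for Ifit3, 0.955 for Isg15, 1.06 for Rsad2, 0.988 for Oasl1 and 0.364 for Irf7, so that the direction turned for Ifit3, Isg15 and Oasl1. Rsad2 was at 642, 605 and 612 CPM and Oasl1 at 125, 123 and 130 CPM on that scale, near-equal in the 3 libraries, while Ifnb1 was at 638, 253 and 251 CPM and Ifit2 at 912, 297 and 327 CPM.

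The same contrast was present inside the inflammatory macrophage-like subset, where the Ifnb1 ratio was 2.57, or 1.81 with tear-product genes left out. In endothelial-like cells Rsad2 had a ratio of 2.52, or 1.55 with those genes left out. The other 6 interferon-stimulated genes had ratios from 0.909 for Isg15 to 1.30 for Ifit2, but from 0.553 to 0.779 for the same 2 genes with tear-product genes left out, and the direction turned for 5 of the 6. In fibroblast-like cells ratios ran from 0.595 for Irf7 to 1.68 for Oasl1, and from 0.38 to 1.08 with those genes left out. Irf7 was lowest in the female library in myeloid-like and fibroblast-like cells. No test of sex was made, since sex, facility and day are the same split, and depth, tear-product share and stress gene share moved with it as given above.

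**Figure D5:**
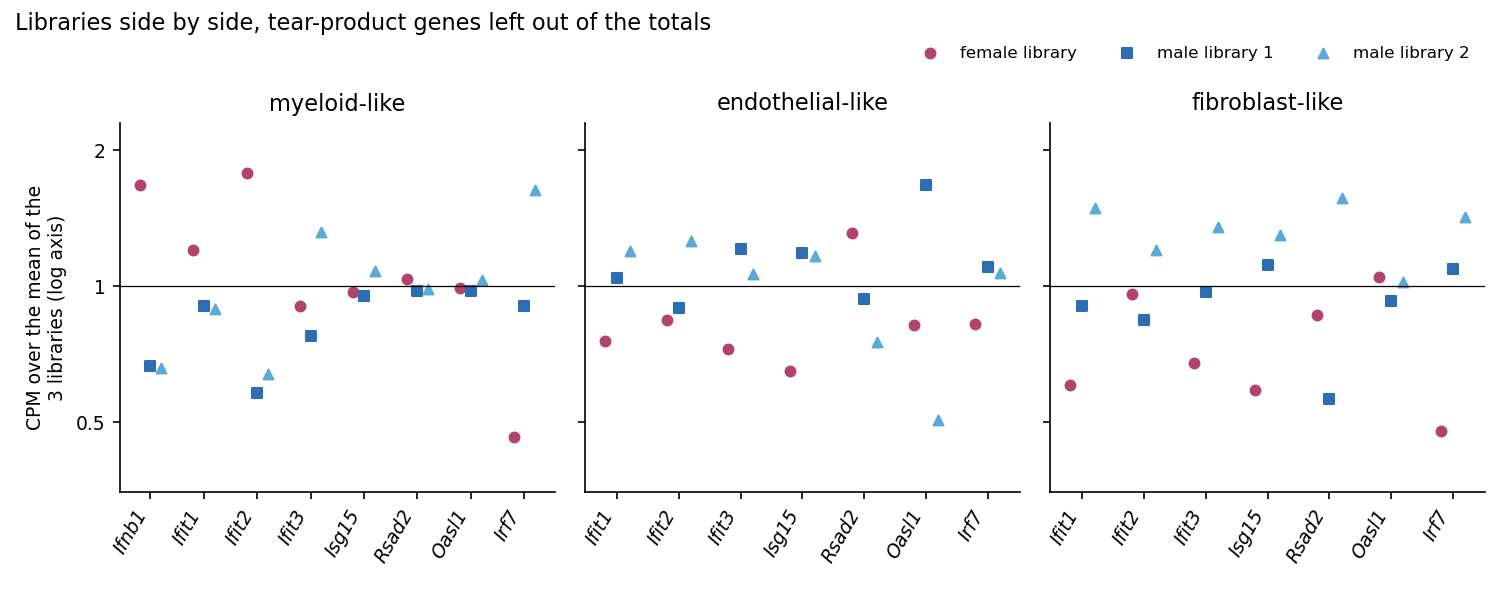
Points give the level of each gene in a library over the mean of the 3 libraries (log axis), with tear-product genes left out of the totals, in myeloid-like, endothelial-like and fibroblast-like cells, for genes with at least 20 UMIs in the class. In myeloid-like cells the female library is above the line for Ifnb1 and Ifit2 and below it for Irf7, and the libraries nearly coincide for Rsad2 and Oasl1.

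The genes whose pattern over classes and libraries was most like that of the members were looked up over 18 points (6 classes in 3 libraries, each library centred, on log2(CPM + 10)), which share libraries and tear-product load, so no p is given. Among the closest to the summed 7 genes were Mcl1, an inhibitor of apoptosis (Pearson r = 0.97), Zmiz1 (0.95), Cyfip1 (0.95), Atox1, a copper chaperone gene (0.95), Trim25, a ubiquitin ligase gene of the RIG-I pathway (0.95), Sdcbp (0.94) and Rbm7 (0.93). Among the closest to Ifnb1, with an r from 0.997 to 0.998, were Havcr2, Fcgr4, Csf1r, Csf3r, Adgre1, Slc13a3 and Lair1, many of them known macrophage genes. Among the members r with Ifnb1 was 0.93 for Oasl1, 0.85 for Ifit2, 0.69 for Rsad2, 0.68 for Isg15, 0.49 for Ifit1, 0.33 for Irf7 and 0.29 for Ifit3.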

How the data were processed

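UMI counts per gene and cell barcode were deposited by the authors for 3 libraries, made with Cell Ranger 6.1.2 on mm10 per the submitters' processing notes; the authors' own decontaminated counts and cell names were not used here. Called barcodes with at least 500 UMIs, at least 200 genes and under 15% mitochondrial UMIs were kept, and doublets were removed by the score of Scrublet (scanpy 1.11.5) at an expected 0.8% per 1000 cells. Libraries held 154532064, 117291721 and 102463570 UMIs over all barcodes, of which 40.8%, 34.6% and 43.6% were in called barcodes. Cells were integrated and clustered with Seurat 5.3.0 at resolution 1, with 380 genes left out of the features, and named from marker genes; the scoring rule for names was set after the clusters were seen. The symbols Mx1, Mx2, Sting1 and Mb21d1 were not analysed here.

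The members and gene lists were chosen with earlier results of these data known. Counts were summed per library and class, and a class was tested against all other named cells with edgeR 4.0.16 in R 4.3.3 (quasi-likelihood, TMM, filterByExpr, library as a block, Benjamini-Hochberg adjustment over all genes tested, threshold 0.05). No member was tested. Each library is a separate pool of animals per the labels. The genes named were the 6 largest and 3 smallest called differences per class from the type I and gamma lists, the 6 highest-level genes of the other lists in myeloid-like cells, and the 8 genes most like Ifnb1 or the summed members, of which some are not reported here. Cells were thinned to 1000 UMIs to compare shares of cells. The free RNA estimate scales the composition of uncalled barcodes, of all of them or of those with 10 to 100 UMIs, by the tear-product share of a class over theirs. Exact 95% intervals reflect counting error alone, and the floor is 3 UMIs per library. The test was tested on simulated data with 200 changed genes.

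Alternatives were total UMIs, DESeq2 1.42.0, no filter on low counts, each library left out, no library block, mitochondrial share under 5%, over 1000 UMIs per cell, no doublet removal, tear-product genes left out and resolution 0.5. Those that left epithelial-like cells out of the other arm, used all uncalled barcodes for free RNA or varied the ratio of libraries were chosen after seeing the data.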

Additional observations from a re-analysis of the deposited data

Results flagged for a closer look

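Ifnb1 UMIs were also seen in cells that the comparisons did not use. In cells removed by their doublet score the level was 41.5 CPM in the female library (205 UMIs in 76 of 646 cells), 4.96 CPM in male library 1 (9 UMIs in 4 of 287 cells) and 6.29 CPM in male library 2 (13 UMIs in 12 of 315 cells). In cells of the female library that met no class name it was 46.4 CPM (72 UMIs in 45 of 402 cells). Each value was above the level that 3 UMIs would give, which was 0.607, 1.65 and 1.45 CPM in the removed cells and 1.94 CPM in the unnamed cells.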

How the results depend on the processing

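No paired analysis of female against male libraries was possible, because they came from separate pools of animals. The class tests compared cells within each library, with library as a block. The counts of other type I interferon-stimulated genes called were 27 in myeloid-like, 28 in endothelial-like, 19 in fibroblast-like, 22 in lymphoid-like and 35 in epithelial-like cells, and leaving out 1 library gave 24 to 31, 25 to 27, 15 to 22, 12 to 17 and 31 to 36. In lymphoid-like cells the count was 12 without the female library and 14 without male library 2, 14 with DESeq2, 13 with no library block and 21 (13 higher, 8 lower, so that the direction turned) with total UMIs in place of TMM. In fibroblast-like cells it was 32 with total UMIs, and 25 (6 higher, 19 lower) with epithelial-like cells left out of the other arm, which removes the class with the lowest levels. Total UMIs moved the median log2 difference of all genes to 0.81, 1.17, 1.43, 0.58 and −1.82 in myeloid-like, endothelial-like, fibroblast-like, lymphoid-like and epithelial-like cells, and that of the list to 2.75, 2.82, 2.17, 0.44 and −4.22. Gbp7 in myeloid-like cells turned from −0.97 to 0.055 under that scaling, and Gbp7 lost its call with DESeq2, with no library block, without the female library and without male library 1. The summed 7 genes became 2542, 1719, 647, 481, 251 and 103 CPM in myeloid-like, endothelial-like, fibroblast-like, mural-like, lymphoid-like and epithelial-like cells with tear-product genes left out of totals, since a smaller total raises every level. Without doublet removal they were 277 CPM in fibroblast-like and 17.8 CPM in epithelial-like cells. Leaving out 1 library gave 1107 to 1591, 736 to 913, 310 to 355, 112 to 253, 90.3 to 108 and 12.9 to 15.9 CPM in the order of classes above. The share of Ifnb1 UMIs of named cells in myeloid-like cells was 96.4% without doublet removal, 97.4% with clustering at resolution 0.5 and 98.2% to 98.6% with 1 library left out, and the ratio of female to male Ifnb1 was 2.54 with tear-product genes left out and 3.62 to 4.03 with 1 male library left out. For these changes other than those whose construction is named, the cause was not tested. The remaining 109 values for comparisons kept their direction and stayed within 1.5 times of their count or 1 SD of their level. Of the values for single genes, 858 kept sign and call if tested or stayed within 1 SD if a level. A further 54 levels moved, and of the tested values 20 lost their call and 1 turned. The number of cells, 148, limits the values of the mural-like class.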
